A study of Bos taurus with 18 samples.

Results

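The 6 microRNAs known from stratified squamous epithelium and keratinocyte differentiation that were followed in rumen papillae are bta-miR-205, bta-miR-31, bta-miR-34a, bta-miR-149-5p, bta-miR-184 and bta-miR-34c, written below without the prefix for cattle. They were chosen by name, as bovine entries of the library files, and are 6 of the 824 miRNAs left once overlapping names were taken as 1. The rumen is the forestomach in which feed is fermented. Its papillae are lined by a keratinised stratified epithelium over a core of connective tissue and vessels. Biopsies came from 9 Holstein cows with a rumen cannula that were not in milk. The 4 groups, given here as HG_PHY (4 libraries), HG_CON (5), FD_PHY (4) and FD_CON (5), are cows on a high-grain diet with 65% concentrate (HG) or earlier on forage only (FD), in an arm given a supplement labelled PHY or in a control arm (CON). The sources do not say what PHY is, how old the cows were or whether the supplement was already fed on forage. All forage samples came before the grain samples, so diet and time cannot be told apart. Nothing in the labels ties a library to a cow, so 18 libraries from 9 cows were treated as independent, and p-values measure only the spread between these libraries.

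A miRNA is a short RNA that guides the silencing machinery to messenger RNAs through its seed, the bases near its 5′ end. In keratinocytes, miR-205 is among the most abundant miRNAs and in mouse skin it supports the expansion of progenitor cells. In human keratinocytes of skin and cornea, miR-184 is known to oppose miR-205 at a shared target, the lipid phosphatase SHIP2. miR-31 promotes keratinocyte proliferation and is raised in human psoriasis, whereas miR-34a and miR-34c are p53 targets that restrain the cell cycle and are held down by p63 in keratinocytes.

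All 6 hairpins lie on the same chromosome in the files and in the RefSeq table (assembly ARS-UCD2.0), which was used for names and neighbours alone because the build of the files is not given. miR-205 and miR-34a lie on chromosome 16, miR-31 on chromosome 8, miR-149 on chromosome 3, miR-184 on chromosome 21 and miR-34c on chromosome 15. By the spans of that table, MIR149 lies within GPC1, MIR34A overlaps GPR157, MIR31 overlaps IFNE, MIR184 overlaps a long noncoding RNA, MIR34C overlaps BTG4 and HOATZ, and MIR205 overlaps no other gene and lies between CAMK1G and PLXNA2. The table gives gene spans only, so exon and intron were not assigned.

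Between 5.74 and 15.2 M reads were counted per library, and each of the 6 miRNAs was read in 18 of 18 libraries. miR-205 was the eighth most abundant of 824 miRNAs, with a mean of 28643 CPM (reads per 1 M counted, after TMM scaling of the library size) and 2.86% ± 0.291 of the counted reads (SD, n = 18). miR-31 ranked 32 at 5106 CPM, miR-34a 120 at 287 CPM, miR-149-5p 169 at 61.4 CPM, miR-184 324 at 4.16 CPM and miR-34c 377 at 2.03 CPM. The order miR-205, miR-31, miR-34a, miR-149-5p and then the scarce pair held in 18 of 18 libraries, and miR-184 stood above miR-34c in 14 of 18.

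**Figure D1:**
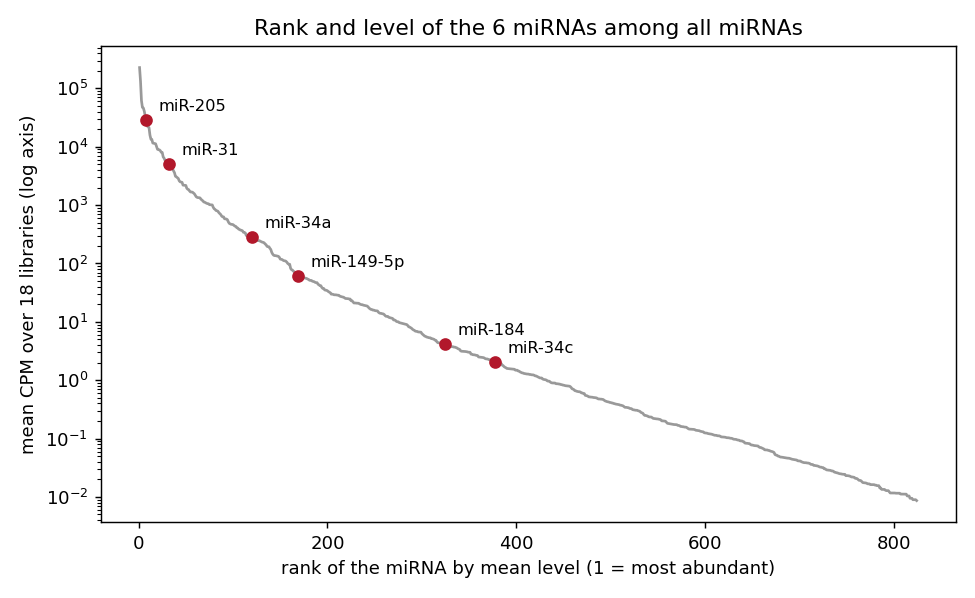
Mean level of every miRNA over 18 libraries (CPM, log axis) against its rank, 1 being the most abundant, with the 6 keratinocyte miRNAs as points. The 6 span the list from rank 8 (miR-205, 28643 CPM) to rank 377 (miR-34c, 2.03 CPM).

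Together the 6 took between 2.64% and 4.10% of the counted reads of a library, with a median of 3.41% in HG_PHY, 3.51% in HG_CON, 3.27% in FD_PHY and 3.38% in FD_CON. miR-205 alone made up 79.3% to 89.9% of their reads. The summed level of the 6 therefore follows miR-205 and says little of the scarcer members.

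Markers of other cell types were present as well. The 6 muscle miRNAs summed to between 102603 and 297900 CPM, although miR-133b had 0 reads in 6 libraries and miR-206 in 8. This sum follows miR-143, with a mean of 133130 CPM, and no other of the 6 averaged above 4504 CPM. The 6 leukocyte miRNAs summed to 3453 to 5662 CPM, the 3 erythroid ones to 6404 to 18352 CPM, the 2 endothelial ones to 9452 to 16158 CPM, the 4 miRNAs of columnar gut epithelium to 711 to 880 CPM and the 3 fibroblast ones to 5168 to 9211 CPM. In such bulk samples, fewer cells of a type and less RNA per cell cannot be told apart. CPM stay relative values after TMM scaling, so a large pool such as the muscle miRNAs can bear on other levels.

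miR-205, the leading epithelial miRNA, was the steadiest of the 6. It stood at 25711, 26733, 28327 and 29233 CPM in HG_PHY and at 25205, 29862, 23563, 34856 and 32304 CPM in HG_CON. On forage it stood at 25596, 29490, 24701 and 27464 CPM in FD_PHY and at 29197, 29107, 27227, 36516 and 30477 CPM in FD_CON. The 4 groups overlapped, and the highest library had 1.55 times the level of the lowest. Its spread within groups was 0.17 on the log2 scale. The median was 0.42 over the 468 miRNAs that passed edgeR's filter on low counts, and 93.6% of these had a larger spread. Most of them are scarcer than miR-205 and carry more counting error, and the spread was not compared at like abundance. It averaged 27501 ± 1579 CPM in HG_PHY (SD, n = 4), 29158 ± 4738 in HG_CON (n = 5), 26813 ± 2124 in FD_PHY (n = 4) and 30505 ± 3555 in FD_CON (n = 5). By mean the order was FD_CON, HG_CON, HG_PHY and FD_PHY, and each step was smaller than the larger SD of the 2 neighbouring groups.

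miR-31 varied more. It stood at 4926, 5133, 5214 and 6607 CPM in HG_PHY and at 4207, 4185, 3536, 5337 and 5936 CPM in HG_CON. On forage it stood at 6346, 4558, 3860 and 5109 CPM in FD_PHY and at 6474, 2906, 5113, 6411 and 6043 CPM in FD_CON. It averaged 5470 ± 767 CPM in HG_PHY (SD, n = 4), 4640 ± 972 in HG_CON (n = 5), 4968 ± 1051 in FD_PHY (n = 4) and 5389 ± 1491 in FD_CON (n = 5), with each step of the order smaller than the SD of both neighbours, and all groups overlapped. The lowest of the 18 values, 2906 CPM, belonged to FD_CON 2, the library with the highest muscle sum (297900 CPM). miR-205 was 10.01 times as abundant as miR-31 there, against a median of 5.44 times over all libraries, so in that library the 2 epithelial miRNAs did not keep their usual proportion. The part of the muscle miRNAs in this was not tested.

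miR-34a stood at 323, 295, 301 and 336 CPM in HG_PHY and at 281, 239, 167, 276 and 344 CPM in HG_CON. On forage it stood at 252, 260, 263 and 293 CPM in FD_PHY and at 344, 262, 286, 272 and 364 CPM in FD_CON. It averaged 314 ± 19.1 CPM in HG_PHY (SD, n = 4), 261 ± 64.8 in HG_CON (n = 5), 267 ± 18.1 in FD_PHY (n = 4) and 306 ± 45.5 in FD_CON (n = 5). Every HG_PHY library lay above every FD_PHY library, while HG_CON and FD_CON overlapped and 2 HG_CON libraries lay below all of FD_CON. The closest were HG_PHY 2 and FD_PHY 4, at 295 and 293 CPM. Their exact Poisson 95% intervals, which cover counting error only, overlapped (284 to 307 and 283 to 304 CPM). The lowest value, 167 CPM, belonged to HG_CON 3, which also had the lowest miR-205 level (23563 CPM) and the highest leukocyte and erythroid sums (5662 and 18352 CPM). The part of blood and immune cells in this was not tested.

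miR-149-5p, which is made from a hairpin inside the gene of the proteoglycan glypican-1, averaged 66.9 ± 8.34 CPM in HG_PHY (SD, n = 4), 61.4 ± 19.6 in HG_CON (n = 5), 55.4 ± 9.22 in FD_PHY (n = 4) and 61.8 ± 21.7 in FD_CON (n = 5). Its values ran from 55.2 to 74.0 CPM in HG_PHY, 42.9 to 88.3 in HG_CON, 44.5 to 65.1 in FD_PHY and 33.6 to 83.7 in FD_CON, and all groups overlapped. The other arm of its hairpin, miR-149-3p, had 6 reads in all, in 2 of 18 libraries.

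miR-184, scarce in these papillae, was the most variable of the 6. It stood at 5.03, 8.65, 5.15 and 16.6 CPM in HG_PHY, from 33, 75, 49 and 213 reads, and at 6.81, 0.903, 2.31, 1.65 and 5.05 CPM in HG_CON, from 43, 9, 22, 16 and 46 reads. On forage it stood at 3.95, 2.50, 1.90 and 1.91 CPM in FD_PHY, from 27, 24, 13 and 20 reads, and at 3.75, 2.26, 3.19, 1.21 and 2.15 CPM in FD_CON, from 44, 28, 31, 12 and 23 reads. All 4 HG_PHY libraries lay above all 4 FD_PHY libraries, and 2 of 5 HG_CON libraries above all FD_CON libraries. The highest library, HG_PHY 4, had 18.4 times the level of the lowest, and its exact Poisson 95% interval of 14.4 to 19.0 CPM lay above that of the next, HG_PHY 2 (6.80 to 10.8 CPM). Such intervals cover counting error only. The spread of miR-184 within groups was 0.78 on the log2 scale, while counting alone would give 0.28. The authors' adjusted count of miR-184 was 0.5 of its raw count. No other name used here lies at its position, so the tables do not show what the reads were divided over.

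miR-34c, also scarce, had between 11 and 31 reads per library. It averaged 1.94 ± 0.464 CPM in HG_PHY (SD, n = 4), 2.29 ± 0.749 in HG_CON (n = 5), 1.54 ± 0.538 in FD_PHY (n = 4) and 2.22 ± 0.488 in FD_CON (n = 5), and all groups overlapped. Its spread within groups, 0.39 on the log2 scale, was near the 0.35 that counting alone would give. The log2 CPM behind the spread hold a small added count, which lowers the spread of scarce miRNAs, and the counting value does not. These values are thus only roughly comparable, and differences between libraries were hard to measure at this depth. Its adjusted count was also 0.5 of the raw count, and a human entry, hsa-miR-34c-5p, covers the same position.

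**Figure D2:**
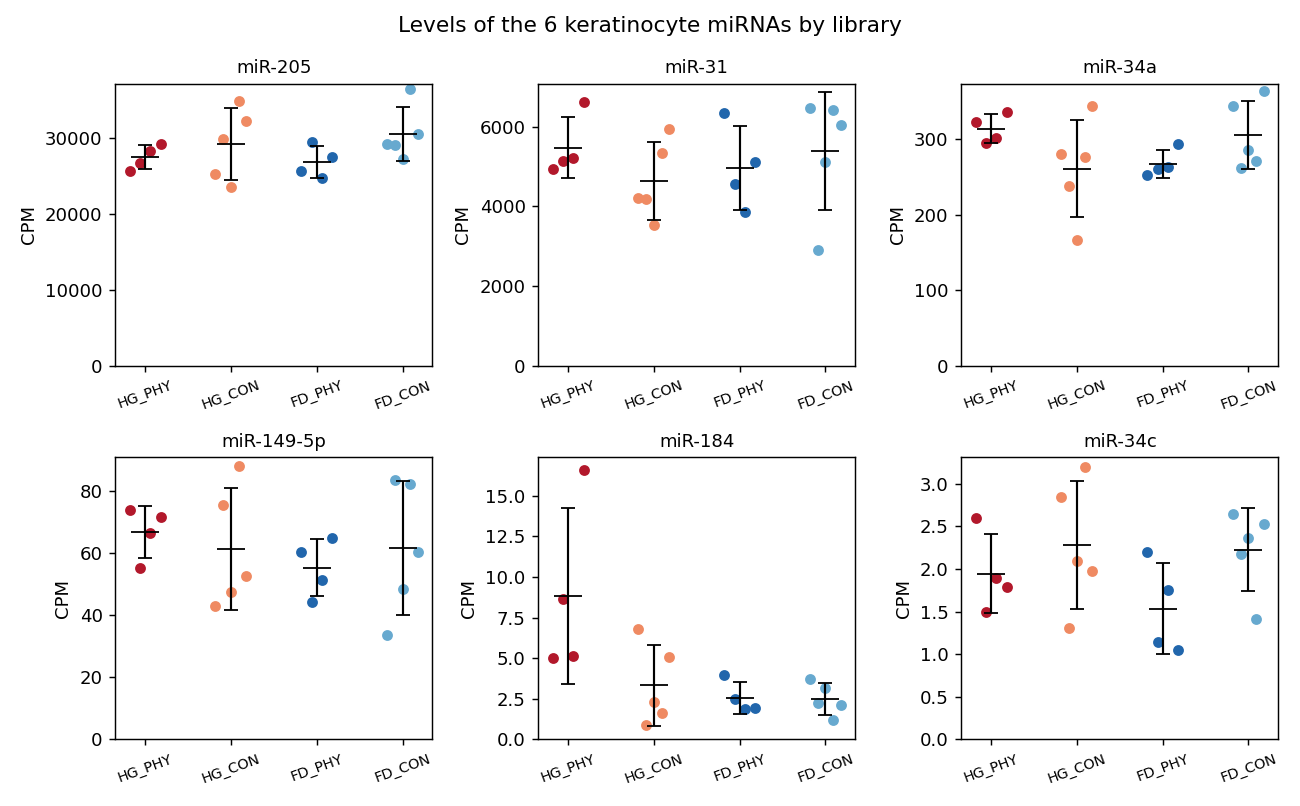
Level of each of the 6 miRNAs (CPM, scaled by TMM) in each library, 1 point per library, by group; the horizontal bar is the mean and the whiskers are 1 SD (n = 4, 5, 4 and 5). miR-184 in HG_PHY reaches 16.6 CPM, above every library of the other 3 groups, and miR-34a in HG_PHY (295 to 336 CPM) lies above FD_PHY (252 to 293 CPM).

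The miR-34 family shares 1 seed with miR-449. miR-34a held most of its reads, 147 times those of miR-34c at the median (79.5 times in HG_CON 3 to 279 times in FD_PHY 4). miR-34b, from the hairpin next to miR-34c, had 9 reads in all, in 4 of 18 libraries. The passenger strand hsa-miR-34c-3p had 18 reads in 6 libraries, miR-449a, best known from multiciliated cells, 227 reads in 17 libraries (mean 1.27 CPM), and miR-449b 8 reads in 2 libraries. Within a library the log2 ratio of miR-34c to miR-34a averaged -7.05 ± 0.51 on grain and -7.25 ± 0.44 on forage (SD, n = 9 each), a difference of 0.20 that did not pass a two-sided exact permutation test (p = 0.375, adjusted over 2 ratios 0.375).

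The main comparison asked whether grain feeding changed these miRNAs in both arms together. None of the 6 passed edgeR's quasi-likelihood test at an adjusted p under 0.05 (Benjamini-Hochberg over 468 miRNAs). Over all 468 the share called was 0.214%, 1 miRNA (miR-320a). Among the members, miR-184 had the largest change of the 6, with 5.79 ± 4.75 CPM on grain and 2.54 ± 0.916 CPM on forage (SD, n = 9 each) and a fitted log2 change of 1.09 ± 0.36 (SE; 95% interval 0.33 to 1.85). Its edgeR p of 0.00695 became 0.221 once adjusted. Grain libraries exceeded the highest forage library in 6 of 9 cases, and the other 3 lay below the forage mean. By p it ranked 13 among the 468, of which 10.7% had an unadjusted p under 0.05, as had 1 of the 6 members. All 4 tested muscle miRNAs were below 0 in this comparison, their sum being 102603 to 133027 CPM on grain and 129264 to 297900 CPM on forage. The endothelial miRNAs (2 of 2), the fibroblast ones (3 of 3), 4 of 6 leukocyte ones and 2 of 4 of columnar gut were also below 0, while the 3 erythroid ones were above 0, with sums that overlapped between the diets. Their part in the members' levels was not tested.

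The abundant members differed little between diets. miR-205 had a log2 change of -0.01 ± 0.09 (SE) with a 95% interval of -0.19 to 0.16. miR-31 had -0.04 ± 0.14 (-0.34 to 0.26) and miR-34a 0.00 ± 0.11 (-0.24 to 0.24), of either sign depending on the scaling for miR-34a. For miR-149-5p the change was 0.13 ± 0.18 (-0.24 to 0.50) and for miR-34c 0.19 ± 0.27 (-0.38 to 0.76). Their adjusted p-values by edgeR lay between 0.832 and 0.988, and the interval was widest for the scarce miR-34c. Of the 6 members, 4 had a change above 0, with a median of 0.07, beside 49.1% above 0 and a median of -0.01 over all 468.

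**Figure D3:**
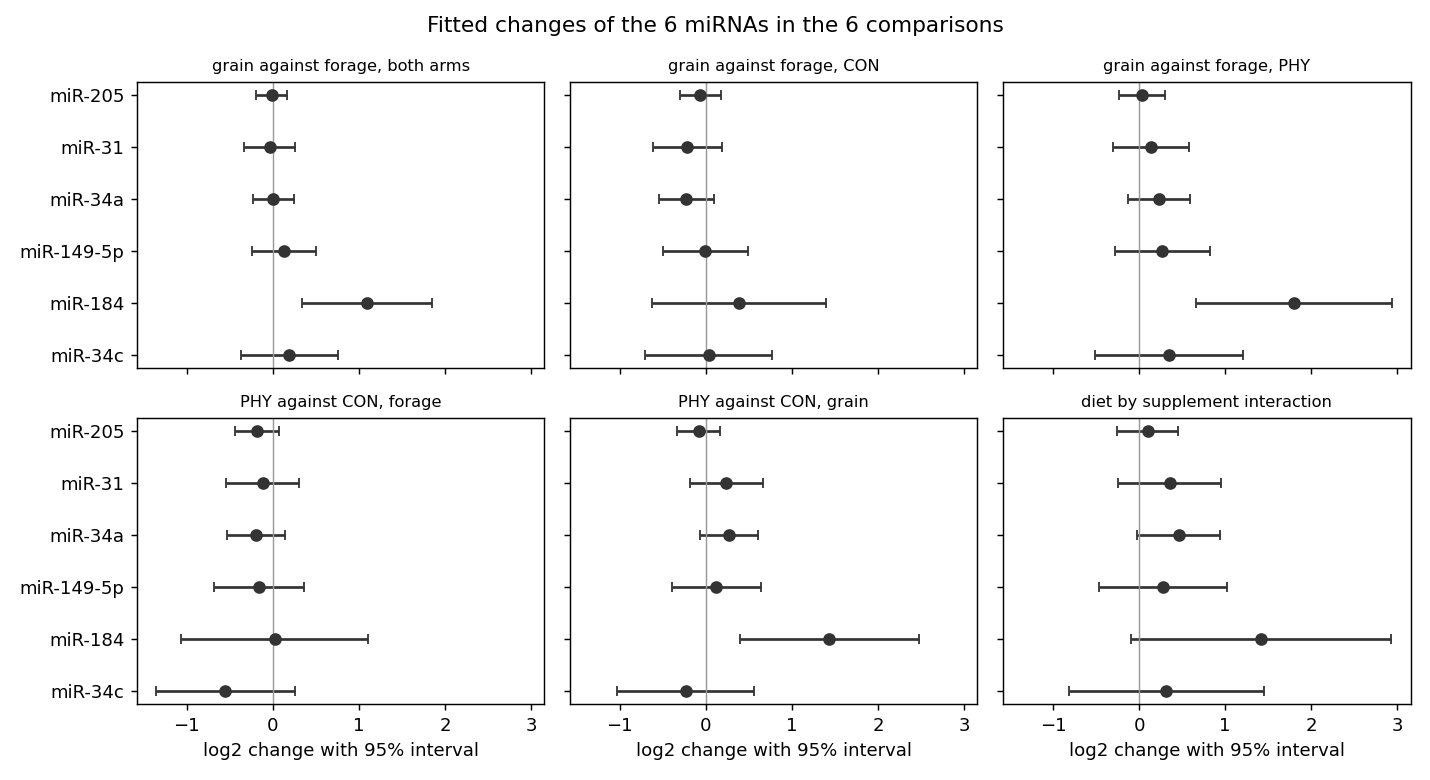
Log2 change of each of the 6 miRNAs in the 6 comparisons, from edgeR; points are the fitted changes and bars their 95% intervals, before any adjustment for the number of miRNAs. miR-184 lies apart from 0 in both arms together (1.09), in PHY cows (1.80) and between the arms on grain (1.43), and no change passed after adjustment over 468 miRNAs.

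Because miR-184 is known to act against miR-205, their ratio within a library was compared as well; it does not depend on scaling. The log2 ratio of miR-184 to miR-205 averaged -12.68 ± 1.32 on grain and -13.52 ± 0.64 on forage (SD, n = 9 each), a difference of 0.84 (two-sided exact permutation p = 0.103 over 48620 arrangements, adjusted over 2 ratios 0.205). It passed with HG_CON 2 left out (difference 1.13, adjusted exact permutation p = 0.0359), the library with the fewest miR-184 reads, and with no other library left out (adjusted exact permutation p up to 0.367). In PHY cows the difference was 1.61 (two-sided exact permutation p = 0.0286, the smallest that 4 against 4 allow). In control cows it was 0.23 (exact permutation p = 0.722), both before adjustment. miR-205 itself changed by 0.04 ± 0.13 (SE) in PHY cows, so the ratio there mostly restates the level of miR-184 and is no separate evidence.

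In control cows, the grain and forage libraries overlapped for all 6 miRNAs; over the 468, 0.641% lay wholly higher and 0.427% wholly lower on grain. The log2 changes were -0.07 ± 0.11 (SE) for miR-205, -0.22 ± 0.19 for miR-31, -0.23 ± 0.15 for miR-34a, -0.01 ± 0.24 for miR-149-5p, whose sign varied with the scaling, 0.39 ± 0.49 for miR-184 and 0.03 ± 0.35 for miR-34c, also of varying sign. None passed edgeR's test (adjusted p between 0.735 and 0.996), nor did any of the 468 miRNAs (0%) (10.7% at an unadjusted p under 0.05), and 2 members had a change above 0 beside 46.2% of all. DESeq2 and limma-voom also called 0 of 468. Single libraries moved several of these values. miR-31 had a change of -0.41 without FD_CON 2, with an adjusted p no lower than 0.531 in any alternative, and -0.14 without HG_CON 3. miR-34a had -0.34 without HG_CON 5 and -0.11 without HG_CON 3, and miR-184 0.00 without HG_CON 1 and 0.62 without HG_CON 2.

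In PHY cows, the log2 change of grain over forage was above 0 for 6 of 6 miRNAs, with a median of 0.25, beside 50.6% above 0 and a median of 0.01 over all 468. Here miR-184 averaged 8.85 ± 5.42 CPM in HG_PHY and 2.56 ± 0.966 CPM in FD_PHY (SD, n = 4 each), which the model put at 1.80 ± 0.55 on the log2 scale (SE; 95% interval 0.66 to 2.94). The edgeR p of 0.00353 became 0.375 once adjusted, and the miRNA ranked 4 by p among the 468. Without HG_PHY 4 the change was 1.30, with the 3 remaining grain libraries still above every forage library of the arm. The adjusted p ran from 0.124 to 0.936 over all alternatives.

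For miR-34a, edgeR gave a log2 change of 0.23 ± 0.17 (SE; 95% interval -0.12 to 0.59; edgeR adjusted p = 0.834). It lay above every FD_PHY library in 4 of 4 HG_PHY libraries, though the closest ones differed by no more than counting error. Its groups and those of miR-184 did not overlap, as for 2.99% of the 468 miRNAs in this direction (14 miRNAs) and 2.78% in the other. The changes of the other members were 0.04 ± 0.13 for miR-205, 0.14 ± 0.21 for miR-31, 0.27 ± 0.26 for miR-149-5p and 0.35 ± 0.41 for miR-34c, with overlapping groups and adjusted p-values of 0.907 to 0.988. edgeR called 0 of 468 miRNAs (0%) in this comparison, 7.05% had an unadjusted p under 0.05, and DESeq2 called 0 and limma-voom 1.

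Markers of some other cell types also differed between these 2 groups. The muscle sum was 102603 to 112167 CPM in HG_PHY and 129264 to 166118 CPM in FD_PHY, with 4 of 4 tested muscle miRNAs below 0. The leukocyte sum was 3770 to 3923 CPM in HG_PHY and 3925 to 5410 CPM in FD_PHY (5 of 6 below 0), and the endothelial sum 9452 to 12984 CPM in HG_PHY and 13013 to 14857 CPM in FD_PHY (2 of 2 below 0). The groups did not overlap for any of these 3 sums, with narrow gaps for the leukocyte and endothelial ones. Of the 468 single miRNAs, 2.78% lay wholly lower in HG_PHY. The erythroid sums overlapped (6415 to 16870 CPM in HG_PHY, 7299 to 12361 CPM in FD_PHY, 0 of 3 below 0). So did the fibroblast sums (5537 to 8359 and 5741 to 8146 CPM, 2 of 3 below 0). The columnar gut sums overlapped too (711 to 844 and 766 to 834 CPM, 4 of 4 below 0). HG_PHY 4, highest for miR-184, had the lowest muscle sum of all 18 libraries (102603 CPM) and the most counted reads of the grain libraries (13.3 M). The part of these shifts in the members' levels was not tested.

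**Figure D4:**
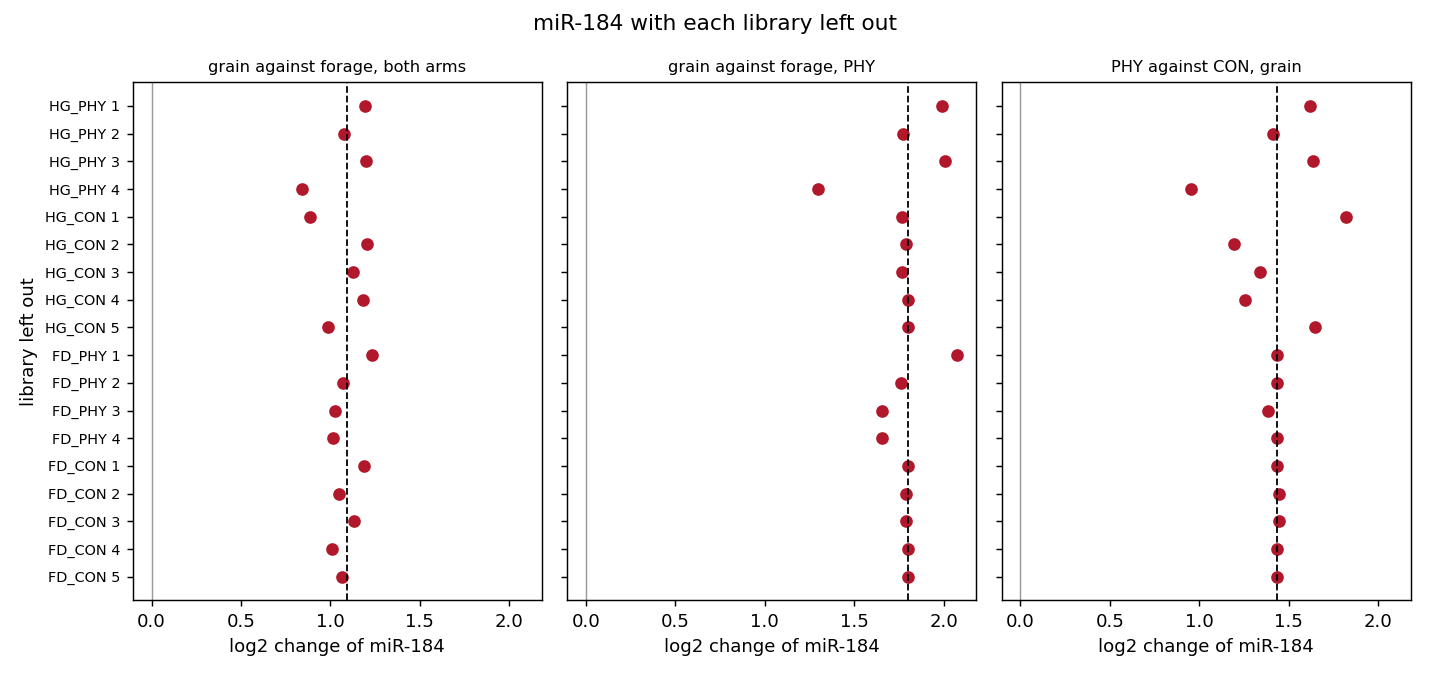
Log2 change of miR-184 in 3 comparisons when each of the 18 libraries is left out in turn (points); the dashed line is the value with all libraries and the solid line is 0. The lowest values in each panel come without HG_PHY 4 (0.84, 1.30 and 0.95), and all stay above 0.

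PHY cows were compared with control cows on each diet, which involves different animals. On forage, 1 of 6 members had a change above 0, against 44.4% of all 468, and the median was -0.17 (-0.04 over all). miR-205 was at or below the lowest FD_CON library in 2 of 4 FD_PHY libraries, with a log2 change of -0.19 ± 0.12 (SE). The changes were -0.12 ± 0.20 for miR-31, -0.19 ± 0.16 for miR-34a, -0.16 ± 0.25 for miR-149-5p, 0.02 ± 0.52 for miR-184, whose sign varied with the scaling, and -0.55 ± 0.39 for miR-34c. All adjusted p-values by edgeR were 0.929 or above. Groups overlapped for all 6 members, while 0.855% of all miRNAs lay wholly higher and 0.427% wholly lower in FD_PHY. Over all 468 miRNAs edgeR called 0% in this comparison, 4.7% had an unadjusted p under 0.05, and DESeq2 called 1.

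On grain, miR-184 averaged 8.85 ± 5.42 CPM in HG_PHY (SD, n = 4) and 3.34 ± 2.49 CPM in HG_CON (n = 5), or 1.43 ± 0.50 on the log2 scale (SE; 95% interval 0.39 to 2.47). The edgeR p of 0.00946 became 0.554 once adjusted. All 4 HG_PHY libraries were above the HG_CON mean, and 2 of 4 were above every HG_CON library. The change was 0.95 without HG_PHY 4 and 1.82 without HG_CON 1. miR-34a had 0.27 ± 0.16 (0.16 without HG_CON 3, 0.38 without HG_CON 5), miR-31 0.24 ± 0.20, miR-149-5p 0.12 ± 0.25, miR-205 -0.08 ± 0.12 and miR-34c -0.24 ± 0.38. Of the 6, 4 were above 0, beside 50.2% of all 468, and the groups overlapped for each, while 2.14% of all lay wholly higher and 0.427% wholly lower in HG_PHY. edgeR called 0 of 468 (0%) and DESeq2 2, with 6.84% at an unadjusted p under 0.05 in edgeR.

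The interaction tests whether the diet effect differed between the arms. It was above 0, that is more positive in PHY cows, for 6 of 6 members, with a median of 0.34, beside 56.4% above 0 and a median of 0.04 over all 468. It was 1.41 ± 0.73 (SE; 95% interval -0.10 to 2.92) for miR-184, 0.46 ± 0.23 (-0.02 to 0.94) for miR-34a, 0.35 ± 0.29 for miR-31, 0.32 ± 0.54 for miR-34c, 0.28 ± 0.35 for miR-149-5p and 0.10 ± 0.17 for miR-205. None passed edgeR's test (adjusted p = 0.997 for each), and 0% of the 468 miRNAs did, with 2.14% at an unadjusted p under 0.05. A difference between the arms was therefore not shown. The 95% intervals of all 6 include 0 and also reach above it. The interaction of miR-184 was 0.92 without HG_PHY 4, and that of miR-34a 0.31 without HG_CON 3.

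Other miRNAs with known roles in keratinocytes and epithelia were taken as a list of 15, of which miR-203 is not analysed here and the other 14 were tested. Between diets in both arms, 6 of the 14 were above 0 (median -0.06), beside 49.1% of all 468, and edgeR called 0, beside 0.214% of all. At an unadjusted p under 0.05 there were 2 higher and 1 lower, beside 4.27% and 6.41% of all miRNAs. The hypoxia-induced miR-210 had a log2 change of 0.41 ± 0.14 (SE, adjusted p = 0.221 by edgeR). For miR-141 of the miR-200 family, which maintains the epithelial state, it was 0.39 ± 0.16 (adjusted p = 0.330 by edgeR). The other listed members of that family stayed near 0, with 0.08 ± 0.11 for miR-200a, 0.06 ± 0.11 for miR-200b, -0.04 ± 0.12 for miR-200c and 0.03 ± 0.09 for miR-429. For miR-125b, linked to stemness of skin progenitors in mouse, the change was -0.43 ± 0.13 (adjusted p = 0.165 by edgeR). Above 0 were 2 of 14 in control cows (46.2% of all 468), 7 of 14 in PHY cows (50.6%) and 10 of 14 for the interaction (56.4%). For PHY against control cows there were 3 of 14 on forage (44.4%) and 5 of 14 on grain (50.2%). In each of these 5 comparisons edgeR called 0 of the 14 and 0% of all. At an unadjusted p under 0.05 there were 1 higher (miR-210) and 2 lower (miR-125b and miR-365-3p) in control cows, beside 3.85% and 6.84% of all miRNAs, and 0 higher and 2 lower (miR-365-3p and miR-200c) for PHY against control cows on forage, beside 2.14% and 2.56%. The other 3 comparisons had 0 of 14 in either direction. Over all miRNAs that share was 7.05% between diets in PHY cows, 6.84% between the arms on grain and 2.14% for the interaction.

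The 6 miRNAs did not move as a block over the libraries. Spearman's rho of log2 CPM over 18 libraries, which share cows and scaling and are given as a description, ran from -0.35 (miR-184 with miR-149-5p) to 0.60 (miR-31 with miR-34a) over the 15 pairs, with a median of 0.21. miR-184 and miR-205 had a rho of -0.33, and miR-34a and miR-34c, which share a seed, 0.29. The 3 miRNAs most like each member were all outside the 6. For miR-205 they were hsa-miR-452-5p (0.74), miR-2285cd (0.69) and hsa-miR-214-5p (0.68), for miR-31 miR-22-3p (0.84), miR-103 (0.80) and miR-21-5p (0.77), and for miR-34a miR-221 (0.78), miR-423-5p (0.72) and miR-185 (0.71). For miR-149-5p they were hsa-miR-224-5p (0.71), miR-182 (0.69) and miR-3431 (0.65), for miR-184 miR-411c-3p (0.72), miR-345-5p (0.66) and miR-450b (0.64), and for miR-34c miR-652 (0.61), miR-1307 (0.55) and hsa-miR-29b-2-5p (0.55).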

How the data were processed

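Small RNA of rumen papillae was sequenced (NETflex Small RNA-Seq kit, per the labels' protocols); among tools, the submitters' processing notes list bcl2fastq 2.20 and also DESeq2. Aligner, counter and genome build: not given in the sources used here. For each library, the authors deposited by miRNA name, per the file headers, the raw count, an expected count adjusted for reads with several matches, the count of distinct read sequences and RPM of all reads, used here only to find the total of 19.5 to 42.7 M reads. A read fitting several names was counted under each. The authors' normalized table was not used.

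The 966 names were merged where positions overlapped by at least 15 nt, or where a bovine and a human name of 1 miRNA had totals within 5%, leaving 824 miRNAs, each represented by its name with the highest total. Of these, 468, all 6 members among them, passed filterByExpr and were tested with edgeR 4.0.16 (R 4.3.3): TMM scaling, quasi-likelihood test, a mean per group, all 18 libraries, Benjamini-Hochberg adjustment over the 468, threshold 0.05, two-sided. CPM use the TMM-scaled library sizes. Ratios used counts plus 0.5 and exact permutation tests (scipy 1.17.1). The edgeR script was tested on simulated data. Replicate libraries differed by more than counting noise (chi-square per degree of freedom 118 to 2834 over 32 pairs within groups). Alternatives were other scalings, filters, tools (DESeq2 1.42.0, limma-voom 3.58.1), the expected counts rounded to whole numbers, unmerged names, fewer libraries and a replicate block. The members and lists were chosen with earlier results of these data known. The named miRNAs are the 6 members, the 3 miRNAs with the highest Spearman's rho with each, the relatives and other arms, and the 3 of the wider list with the lowest p between diets. Outside this rule, miR-320a (the 1 call) and miR-143, miR-133b and miR-206 (muscle markers) were named after their values were seen. So were miR-365-3p, miR-200a, miR-200b, miR-200c and miR-429 (wider list). miR-203 was named as the 1 listed name not analysed here.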

Additional observations from a re-analysis of the deposited data

How the results depend on the processing

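None of the 6 miRNAs passed the threshold in any of 1008 results (each member in 6 comparisons under each alternative), and 52 of these turned the sign. The alternatives reuse largely the same libraries, so these results are not independent. Between diets in both arms, miR-34a was -0.0272 with upper-quartile scaling, -0.0039 with adjusted counts, -0.00672 without the 5 most abundant miRNAs and -0.00932 with the replicate block, and with 1 library left out it ran from -0.0562 to 0.0512, miR-205 from -0.0488 to 0.0214 and miR-31 from -0.14 to 0.0354. In control cows, miR-184 was -0.0235 in limma-voom, against 0.39 in edgeR, miR-149-5p 0.0164 with RLE scaling, 0.0132 with no filter and with the replicate block, 0.0166 in DESeq2 and 0.15 in limma-voom, and miR-34c -0.0107 with upper-quartile scaling and -0.0313 with adjusted counts; with 1 library left out miR-205 ran from -0.13 to 0.00662, miR-149-5p from -0.17 to 0.12 and miR-34c from -0.12 to 0.17. In PHY cows miR-205 ran from -0.00846 to 0.0728 with 1 library left out. Between the arms on forage, miR-184 was -0.00573 with upper-quartile scaling and -0.0230 with adjusted counts, and ran from -0.25 to 0.21 with 1 library left out. The cause of these turns was not tested.

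Over all miRNAs, the 1 call between diets in both arms became 0 with upper-quartile scaling, with 10 CPM in 4 libraries, with adjusted counts and without the 5 most abundant miRNAs, 2 with unmerged names, 3 with no filter and in limma-voom, 5 in DESeq2 and 4 with the replicate block. With 1 library left out it ran from 0 to 3 (3 without HG_CON 3, 2 without FD_PHY 4, 1 without FD_CON 2 or HG_PHY 3). limma-voom called 1 miRNA in PHY cows. Between the arms, 1 was called on forage with no filter and in DESeq2, and 2 on grain in DESeq2; with 1 library left out these ran from 0 to 1 (without FD_CON 4) and from 0 to 2 (without HG_CON 4). The log2 ratio of miR-184 to miR-205 differed by 0.61 to 1.13 with 1 library left out. Scaling, DESeq2, adjusted counts and leaving out the 5 most abundant moved the median of all miRNAs by at most 0.034. The labels do not say that equal numbers mark 1 cow. Same-numbered libraries of an arm correlated at -0.02 to 0.39 in their deviations from the group means, over 0.1 in 3 of 9 pairs and best with their own number in 4 of 9. These values cannot exclude pairing. Without a label to state it, the libraries were not taken as paired. The filter of 10 CPM left out miR-184 and miR-34c, which gave no value there. Depth, 11 to 31 reads per library, limits miR-34c, whose spread is roughly that of counting. For miR-184, with 9 to 213 reads, the spread between libraries exceeds counting error.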

Other observations

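The files also count the distinct read sequences behind each name, which include length variants and sequencing errors and grow with depth. miR-205 was read as 331 to 460 distinct sequences per library, miR-31 as 148 to 294, miR-34a as 22 to 60, miR-149-5p as 11 to 30, miR-184 as 2 to 16 and miR-34c as 1 to 6. For miR-184, the 2 libraries with the most reads, HG_PHY 4 and HG_PHY 2, also had the most sequences, 16 and 10, and HG_PHY 3 had 49 reads in 2 sequences.

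In proportion to miR-205, miR-34a was most abundant by median in HG_PHY, where miR-205 had 79.5 to 94.1 times its reads (median 88.8). That fold was 89.8 to 141 in HG_CON (median 125), 93.6 to 113 in FD_PHY (median 97.8) and 83.8 to 134 in FD_CON (median 95.2). HG_PHY overlapped each of the other groups. These folds were looked at after the levels were seen and were not tested.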
